A study of Mus musculus with 4 samples.

Results

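The CHD genes encode chromodomain helicase DNA-binding proteins, enzymes that use ATP to slide, space or evict nucleosomes. All 9 mouse family members, Chd1 to Chd9, were taken by symbol from the count tables, which list 49997 gene symbols, and all 9 passed the filter on low counts that left 12783 genes for testing. The libraries came from 2 states of iMOP cells, an immortalized wild-type mouse line of multipotent otic progenitors, the cells that form the sensory and neuronal tissue of the inner ear. The 2 proliferating cultures were kept in DMEM/F12 with B27, and 20 ng/ml of the mitogen bFGF. The 2 cultures of iMOP-derived neurons were instead kept in Neurobasal with N21, and 1 µM of K03861, which blocks CDK2, a kinase that drives cells into S phase. The line is a single immortalized source, the labels give no time in culture for the neurons, and the replicates are called biological without saying how the cultures were separated, so p-values measure the spread between these libraries. In bulk RNA, fewer expressing cells and less RNA per cell cannot be told apart.

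The family has 3 subfamilies. Chd1 and Chd2 form subfamily I and travel with elongating RNA polymerase II, where CHD1 reads the methylated histone tail at active promoters. Chd3, Chd4 and Chd5 form subfamily II and are alternative motor subunits of NuRD, the complex that joins nucleosome remodelling with histone deacetylation. Chd6, Chd7, Chd8 and Chd9 form subfamily III. Loss of one copy of CHD7 causes CHARGE syndrome, in which the inner ear and its nerve are malformed, and the title of the series concerns CHD7 at the boundaries of chromatin domains during neuronal differentiation. CHD8 binds CTCF and CHD7, and its gene is a frequent site of mutations in autism. In GRCm38, the mm10 build, GENCODE M21 places the subfamily I genes at chr17:15704967-15772610 (Chd1) and chr7:73426638-73541830 (Chd2), and the subfamily II genes at chr11:69343273-69369406 (Chd3), chr6:125095981-125130591 (Chd4) and chr4:152338651-152390194 (Chd5). Subfamily III lies at chr2:160946978-161109075 (Chd6), chr4:8690406-8867659 (Chd7), chr14:52198151-52257780 (Chd8) and chr8:90828352-91054516 (Chd9).

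Total counts per library ran from 7446361 to 14484011, of which 53.3% to 76.1% fell on the 18S ribosomal RNA row Rn18s-rs5, leaving 2595578 to 3850766 counts for all other genes. The CHD genes together held 5827 and 3091 counts in proliferating replicates 1 and 2, and 6292 and 4919 in neuron replicates 1 and 2. Proliferating replicate 2 stood apart: it had the fewest counts outside the 18S row, 2595578, and the fewest detected genes, 17762 against 20012 to 21637. The summed level of 6 cycling-cell markers, Mki67 and Top2a among them, was 46.97 CPM there against 299.2 CPM in proliferating replicate 1, and the neuron libraries had 381.6 and 205.8 CPM. The 6 cycling markers all had fitted log2 fold changes above 0 in neurons, against the direction of the labels, and none was called. CPM is the count scaled to a common library size, adjusted with the TMM factors of edgeR. The summed level of 11 neuronal markers was 161.9 and 348.8 CPM in the proliferating replicates and 202.3 and 365.2 CPM in the neuron replicates. Without Tubb3, left out after its values were seen (19.1, 193.6, 28.8 and 104.6 CPM), the sums were 142.8 and 155.3 CPM against 173.5 and 260.6 CPM, with both neuron libraries above. Most of each of these sums was Map2, with 93.9 and 92.3 CPM against 121.5 and 140.6 CPM. Of the 10 tested, 7 had a log2 fold change above 0 and none was called. Between same-numbered libraries, 2 were higher in neurons in both replicates (28.8% of all tested genes) and 1 was lower in both (25.5%). The other 7 went opposite ways. Elavl4, with 7.56 and 12.2 CPM against 17.7 and 38.02 CPM, had an unadjusted p of 0.031 and an edgeR adjusted p of 0.9998. Of 7 glial markers, Gfap had 181 and 89 counts in the proliferating libraries and 1 and 2 in the neuron libraries. The summed glial level was 159.3 and 110.0 CPM against 68.2 and 17.9 CPM, and 1 of the 7 was at 0 in each library. Among 6 otic progenitor markers, Sox2 was present in all 4 libraries and Pax2 and Pax8 were at 0 in all 4. Among 6 hair cell markers Pou4f3 and Otof were at 0 in all 4 libraries. The summed level was 23.9 and 18.95 CPM in proliferating cells and 4.63 and 22.1 CPM in neurons. Most of each of these hair cell sums was Myo6, with 21.03 and 16.4 CPM against 4.54 and 12.4 CPM. The part of these differences in the CHD results was not tested.

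The most and the least abundant member both belong to subfamily II, and the stretch of 250 bases before their first RefSeq start is shown for these opposite ends of the family. The letters come from the RefSeq promoter table of GRCm38.p6, which holds 5 of the 9 members, and every CG dinucleotide is in capitals. The Chd4 window is chr6:125095731-125095980 and the Chd5 window chr4:152338401-152338650, both on the plus strand and both ending just before exon 1 of the gene in GENCODE M21.
Chd4: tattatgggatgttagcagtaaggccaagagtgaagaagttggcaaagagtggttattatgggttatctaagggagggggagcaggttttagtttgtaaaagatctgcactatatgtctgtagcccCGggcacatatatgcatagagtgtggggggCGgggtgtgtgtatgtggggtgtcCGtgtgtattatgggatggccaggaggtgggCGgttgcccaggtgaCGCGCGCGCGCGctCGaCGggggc
Chd5: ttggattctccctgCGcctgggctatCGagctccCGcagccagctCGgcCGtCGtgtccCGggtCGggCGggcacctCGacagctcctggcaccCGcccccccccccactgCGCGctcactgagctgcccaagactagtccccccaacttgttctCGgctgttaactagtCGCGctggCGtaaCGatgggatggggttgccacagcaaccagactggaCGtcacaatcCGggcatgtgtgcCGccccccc
The Chd4 window holds 12 CG dinucleotides and the Chd5 window 21, against a median of 6 over 27025 first promoter windows of the same length. At least 12 were found in 33.8% of those windows and at least 21 in 16.1%. The windows of Chd6, Chd8 and Chd9 held 19, 20 and 16. The letters GGGCGG, searched on both strands, occurred in all 5 windows and in 32.96% of all windows, while TATAAA and CACGTG, also searched on both strands, occurred in 0 of the 5 and in 13.0% and 6.04% of all. These matches describe letters only. The member with the lowest level had the most CG dinucleotides of the 5.

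Levels were ranked per kilobase, since the members differ in length. Division by the merged exon length in GENCODE M21 (8.02 kb for Chd4, 13.8 kb for Chd7, 23.1 kb for Chd9) put Chd4 first in all 4 libraries. Chd4, the usual NuRD motor of dividing cells, stood at 16.9 and 27.1 CPM per kb in the proliferating replicates and 20.7 and 23.7 CPM per kb in the neuron replicates. Chd7 was second in all 4 libraries, at 7.78 and 7.32 CPM per kb in proliferating cells and 9.51 and 8.88 CPM per kb in neurons. The level of Chd4 per kilobase was 2.61 times that of Chd7 (mean log2 ratio 1.39 ± 0.36, SD over 4 libraries), and their ranges did not overlap. Chd7 was in turn 2.28 times as high as Chd1, the next gene (log2 ratio 1.19 ± 0.68), again with separate ranges. Chd7 thus had the highest level of subfamily III in every library.

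Below Chd7 the order was less settled. Chd1 came next by its mean, with 4.02 ± 1.87 CPM per kb over the 4 libraries, but its values fell into 5.69 and 5.52 in the replicate 1 libraries and 1.94 and 2.95 in the replicate 2 libraries. Chd8 had 2.64 ± 0.21 CPM per kb, Chd2 2.19 ± 0.94, Chd3 2.18 ± 0.83 and Chd6 1.86 ± 0.66. The ranges of each adjacent pair among these 5 genes overlapped, and the first 3 steps were within the SD of their log2 ratio. The step from Chd3 to Chd6 (log2 ratio 0.22 ± 0.20) held in 4 of 4 libraries per kilobase of merged exons but in 0 of 4 per kilobase of the longest transcript. Chd9 was eighth in all 4 libraries with 1.03 ± 0.57 CPM per kb, below Chd6 in each of them. Chd5 was last in all 4, at 0.257 and 0.099 CPM per kb in proliferating cells and 0.088 and 0.213 in neurons. Chd5 is known as the NuRD motor of mature neurons and testis.

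**Figure D1:**
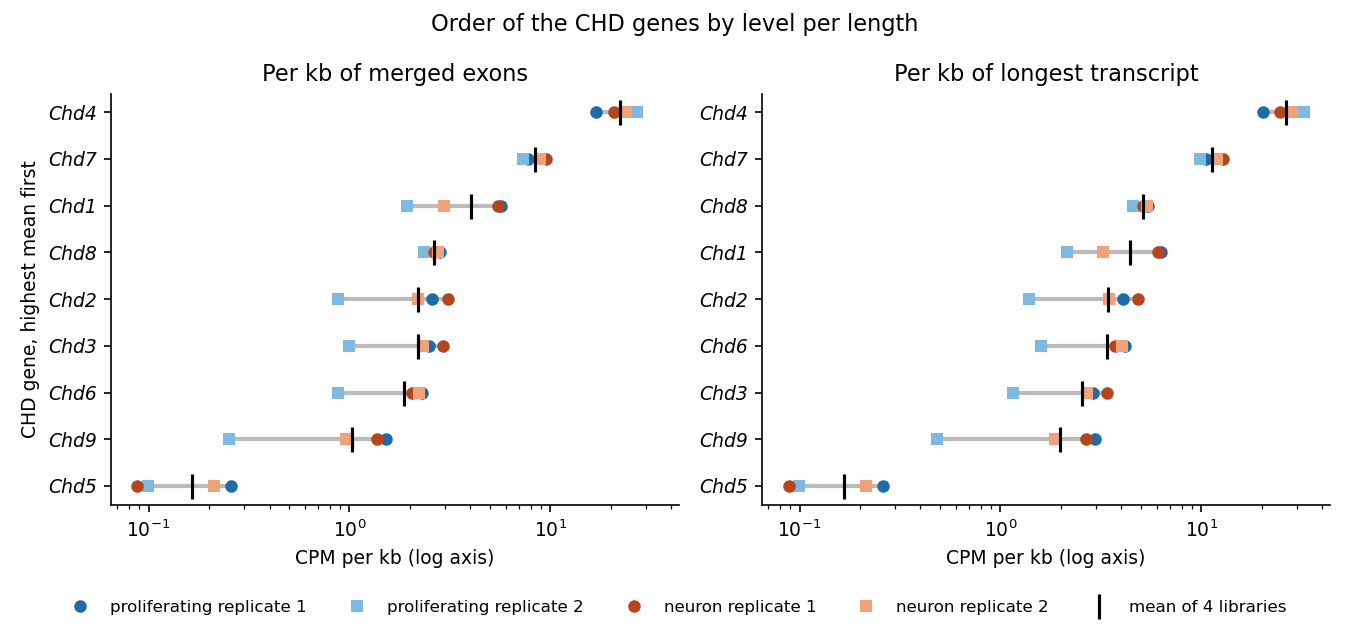
Level of the 9 CHD genes in CPM per kb on a log axis, by merged exon length (left) and by the length of the longest annotated transcript (right). Points are the 4 libraries, grey lines their range and black ticks their mean. Chd4 and Chd7 sit first and second in both panels and Chd5 sits last, while Chd1 and Chd8, and Chd3 and Chd6, change places.

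Chd4 and Chd7 also ranked first and second by counts, by the longest transcript and by coding length. The deposited RPKM values gave another order. With the length implied by those values, Chd1 and Chd2 came before Chd4, and Chd7 had rank 4. Dividing the authors' counts by their RPKM gave a length of 7918 bases for Chd1, close to its longest transcript of 7916, but 61059 bases for Chd7, 73483 for Chd4 and 117159 for Chd3. Those lengths are 4.43, 9.16 and 13.9 times the merged exon length of the gene. Deposited RPKM values of 10.2 for Chd1 and 3.02 for Chd4 in proliferating replicate 1 therefore invert a count ratio of 604 to 1653. Ratios of 1 gene between libraries are not touched by this.

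Neurons were compared with proliferating cells to ask whether any family member differed in level between these states. None of the 9 was called by the edgeR quasi-likelihood test at a Benjamini-Hochberg adjusted p under 0.05, and 0.00% of the 12783 tested genes were called. At an unadjusted p under 0.05 there were also 0 of 9, against 3.43% of all genes. Every member had an adjusted p of 0.9998. DESeq2 called 0.462% of the same genes and again none of the 9. The fitted log2 fold change was above 0 for 8 of 9 members, against 52.0% of all tested genes, but for 3 of 9 when library size alone was used for scaling, which moved the median over all genes from 0.02 to -0.27. That library size includes the 18S row, which held 53.3% to 76.1% of the counts, so this scaling follows the 18S content of each library. The median over the 9 was 0.28 with TMM and -0.16 with library size alone.

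Chd7 differed 1.06-fold between the proliferating replicates on the TMM scale, the smallest such difference of the 9, though not after the GC trend was removed, when Chd4 and Chd8 differed less. Proliferating replicates 1 and 2 had 1305 and 746 Chd7 counts, and neuron replicates 1 and 2 had 1559 and 1201. In TMM-adjusted units these were 107.2, 101.0, 131.1 and 122.4 CPM. Both neuron libraries therefore lay above both proliferating ones, which was also so for 12.9% of all tested genes, and with library size alone the groups overlapped for Chd7, as for the other 8 members (1.74% of all genes had neurons above without overlap on that scale). Neurons had 1.22 times the level of proliferating cells in the fit (95% interval 0.62 to 2.39), and the width of that interval depended on the fit. The SE of the log2 fold change was 0.42 with all libraries and 0.97 with library size alone. It was 0.99 when neuron replicate 1 or neuron replicate 2 was left out. Without proliferating replicate 1 it was 0.38, and without proliferating replicate 2 it was 0.40. The log2 fold change of 0.28 turned to -0.051 when the trend with transcript length was removed from each library, and was 0.00088 with library size alone. Chd7 was 1 of 3 members above 0 in both replicate pairs, along with Chd2 and Chd3, and 28.8% of all genes had that pattern. None of the 9 was lower in both pairs, against 25.5% of all genes. With the replicate number as a block, edgeR gave an unadjusted p under 0.05 for 0 of 9 members and 6.18% of all genes, and an adjusted p under 0.05 for 0 of 9 and 0.0235%. Its log2 differences were 0.29 between the replicate 1 libraries and 0.28 between the replicate 2 libraries.

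**Figure D2:**
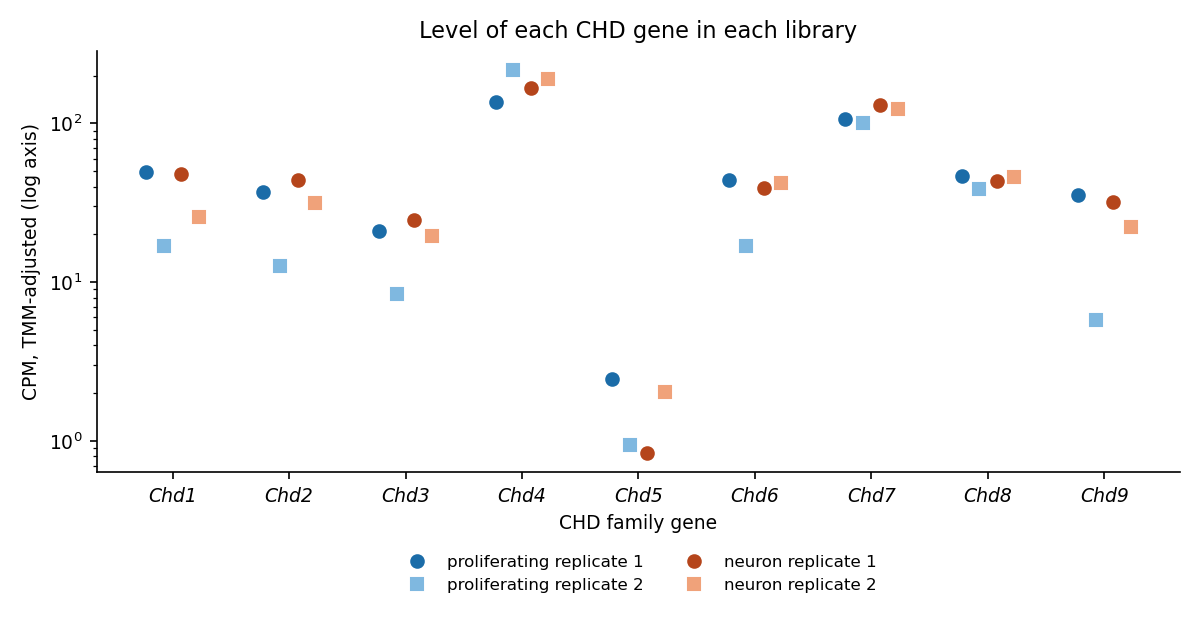
Level of each CHD gene in CPM (TMM-adjusted, log axis) in the 4 libraries, blue for proliferating cells and red for neurons, circles for replicate 1 and squares for replicate 2. Chd7 has the 2 neuron values (131.1 and 122.4) above the 2 proliferating values (107.2 and 101.0). Proliferating replicate 2 is far below the other 3 libraries for Chd2, Chd3, Chd6 and Chd9. For Chd1 it is also lowest (16.9), but neuron replicate 2 (25.7) is low as well.

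Chd8, the closest relative of Chd7 in this subfamily in its pattern over the libraries, had 565 and 287 counts in proliferating cells and 517 and 448 in neurons, or 46.4, 38.8, 43.5 and 45.7 CPM. Its groups overlapped and its log2 fold change was 0.06 (SE 0.43, 95% interval -0.95 to 1.08). Chd6 had 534 and 124 counts in proliferating cells and 466 and 416 in neurons. The 43.9, 39.2 and 42.4 CPM of the other libraries were close together, and the 16.8 CPM of proliferating replicate 2 was the low value. Its log2 fold change of 0.42 (SE 0.56) combined 1.33 between the replicate 2 libraries with -0.16 between those of replicate 1. Chd9 showed the same split at a larger size. It had 430 and 43 counts in proliferating cells and 379 and 219 in neurons, or 35.3, 5.82, 31.9 and 22.3 CPM. The proliferating replicates thus differed 6.07-fold from each other, while the fitted difference between the groups was 0.39 on the log2 scale (SE 0.78, 95% interval -1.43 to 2.21).

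In subfamily II, Chd4 was the gene that went the other way in proliferating replicate 2. Its 1653 and 1604 counts in proliferating cells and 1972 and 1863 in neurons gave 135.8, 217.1, 165.9 and 189.9 CPM, so the proliferating libraries held both the lowest and the highest value. The group means were 176.5 ± 57.5 and 177.9 ± 17.001 CPM (SD, n = 2 each), and the log2 fold change was 0.01 (SE 0.44, 95% interval -1.02 to 1.05). Chd3, which takes the place of Chd4 in some NuRD complexes, had 256 and 62 counts in proliferating cells and 293 and 192 in neurons. Its levels of 21.03, 8.39, 24.6 and 19.6 CPM overlapped between the groups (log2 fold change 0.58, SE 0.56). Chd5 had 30 and 7 counts in proliferating cells and 10 and 20 in neurons. At such counts the 95% Poisson interval of the 7 counts alone runs from 2.81 to 14.4, and no rise of this neuronal gene was detectable (log2 fold change -0.28, 95% interval -2.22 to 1.65).

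Subfamily I showed the replicate split as well. Chd1 had 604 and 125 counts in proliferating cells and 572 and 252 in neurons, or 49.6, 16.9, 48.1 and 25.7 CPM. Both replicate 1 libraries lay above both replicate 2 libraries, and the log2 fold change was 0.15 (SE 0.63). Chd2 had 450 and 93 counts in proliferating cells and 524 and 308 in neurons, or 37.0, 12.6, 44.1 and 31.4 CPM. It had the largest fitted difference of the family, 0.60 on the log2 scale (SE 0.60, 95% interval -0.80 to 2.00), made up of 0.25 for replicate 1 and 1.31 for replicate 2.

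**Figure D3:**
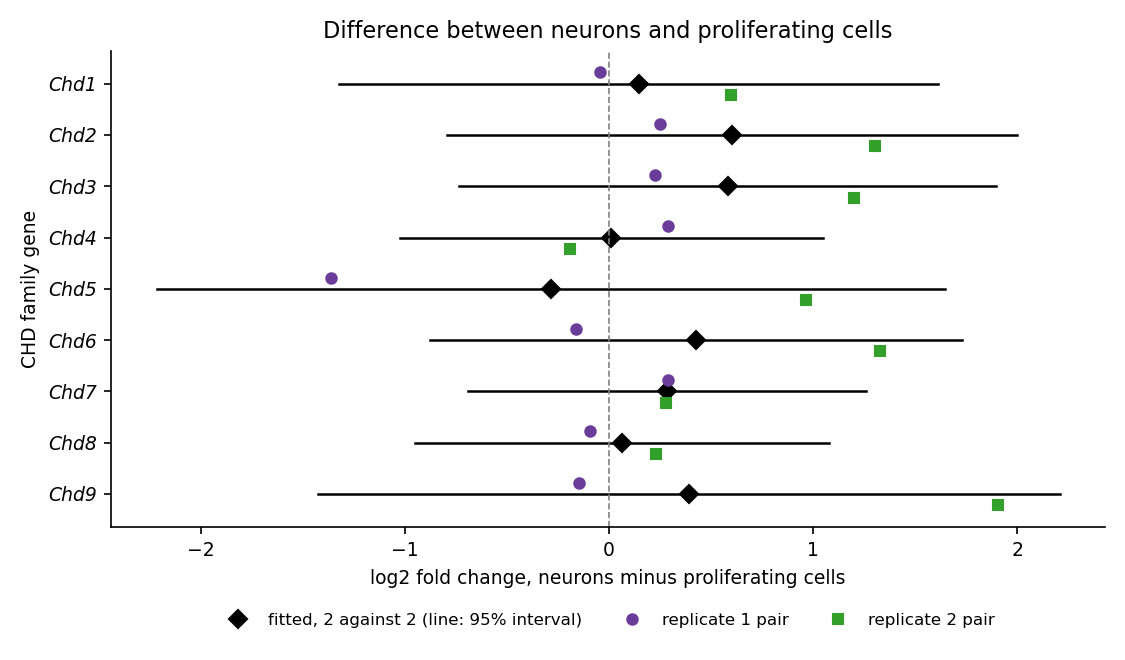
Log2 fold change of neurons over proliferating cells for each CHD gene. Black diamonds are the edgeR fit over 4 libraries with its 95% interval, purple circles the difference within the replicate 1 pair and green squares that within the replicate 2 pair. All 9 intervals include 0, and the 2 pairs fall together for Chd7 (0.29 and 0.28) but lie apart for Chd9 (-0.15 and 1.90).

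These differences shifted with the library left out. Without proliferating replicate 1, so that proliferating replicate 2 stood alone, the log2 fold change was 2.19 for Chd9, 1.55 for Chd2, 1.37 for Chd3, 1.25 for Chd6 and 1.10 for Chd1. The median over the 9 members in that fit was 1.10, against 0.08 over all tested genes. Without proliferating replicate 2 the values of Chd9, Chd6 and Chd1 were -0.36, -0.09 and -0.41, and Chd2 and Chd3 stood at 0.05 and 0.09. In that fit 4 of 9 members were above 0, with a median of -0.04 against 0.02 over all tested genes. For Chd7 the same omissions gave 0.30 and 0.26, and for Chd8 0.17 and -0.04. Leaving out a neuron library also moved values. Without neuron replicate 1, Chd1 was -0.40, Chd2 0.31 and Chd9 0.09. Without neuron replicate 2 they were 0.54, 0.83 and 0.63. Chd5 went from 0.20 to -1.03 between these omissions, while Chd7 was 0.20 and 0.33.

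The proliferating replicates differed at least 2-fold for 6 of 9 members and for 36.5% of all tested genes. All 6 were lower in replicate 2, with log2 differences from -1.22 for Chd5 to -2.56 for Chd9. Between the neuron replicates 1 member had such a gap, Chd5, against 18.7% of all genes. The gap in proliferating cells moved with base composition over all genes: its median was -0.97 for the 3139 genes whose longest transcript had under 45% GC and 0.62 for the 2427 genes with 55% or more. Over transcript length, it was 0.33 below 2 kb and -1.001 from 9 kb on. All 9 members have transcripts over 6 kb, from 6.70 kb for Chd4 to 12.01 kb for Chd9. Their GC content ran from 43.2% for Chd1 to 57.4% for Chd5. With the GC trend of each library removed, the gap was -0.76 for Chd1 and -1.43 for Chd2 in subfamily I. It was -1.83 for Chd3, 0.29 for Chd4 and -1.78 for Chd5 in subfamily II. In subfamily III it was -1.28 for Chd6, -0.37 for Chd7, -0.34 for Chd8 and -2.08 for Chd9. The part of transcript length in these gaps was not tested.

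**Figure D4:**
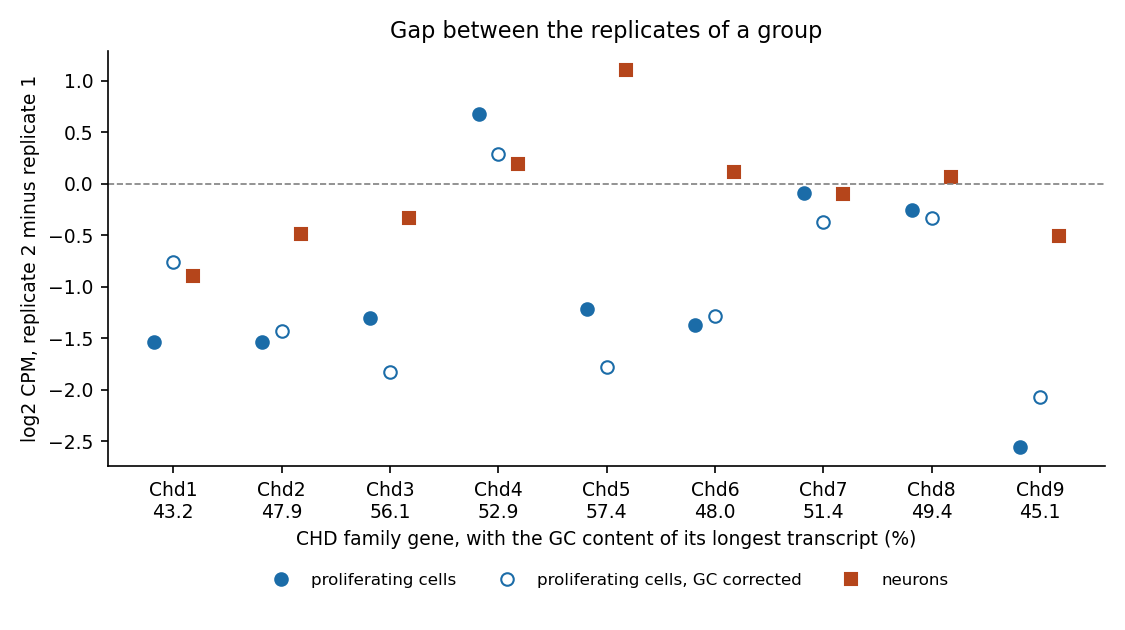
Difference in log2 CPM between replicate 2 and replicate 1 for each CHD gene, with the GC content of its longest transcript under its name. Filled circles are proliferating cells, open circles the same after removal of the GC trend, and squares neurons. In proliferating cells 6 genes lie below -1 and only Chd4 lies above 0.

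Chd7 was then set against its relatives within each library, where no scaling between libraries enters. In proliferating cells it took 22.4% of all CHD counts (95% Wilson interval 21.3% to 23.5%) in the first replicate and 24.1% (22.7% to 25.7%) in the other. In neurons its share was 24.8% (23.7% to 25.9%) and 24.4% (23.2% to 25.6%). These intervals cover counting error only, and that of proliferating replicate 2 overlapped both neuron intervals. The interval of proliferating replicate 1 overlapped that of neuron replicate 2 but not that of neuron replicate 1. The means were 23.3% ± 1.23 and 24.6% ± 0.26 (SD, n = 2 each), a difference of 1.33 percentage points. The exact two-sided permutation p was 0.333, the smallest that 2 libraries against 2 can give. The sign of the mean difference depended on the genes in the total: the difference was -3.02 points without Chd4 and -1.13 points within subfamily III alone. Of its subfamily III relatives, Chd6, Chd8 and Chd9 held 9.16%, 9.70% and 7.38% of CHD counts in proliferating replicate 1. In proliferating replicate 2 they held 4.01%, 9.29% and 1.39%. Between the replicate 1 libraries, the log2 ratios of Chd7 to Chd6, Chd8 and Chd9 changed by 0.45, 0.38 and 0.44 toward neurons. Between the replicate 2 libraries these ratios changed by -1.06, 0.04 and -1.66. The part of proliferating replicate 2 in the signs of the share differences was not tested. The share of Chd4 ranged more widely than that of Chd7, from 28.4% and 51.9% in proliferating cells to 31.3% and 37.9% in neurons.

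**Figure D5:**
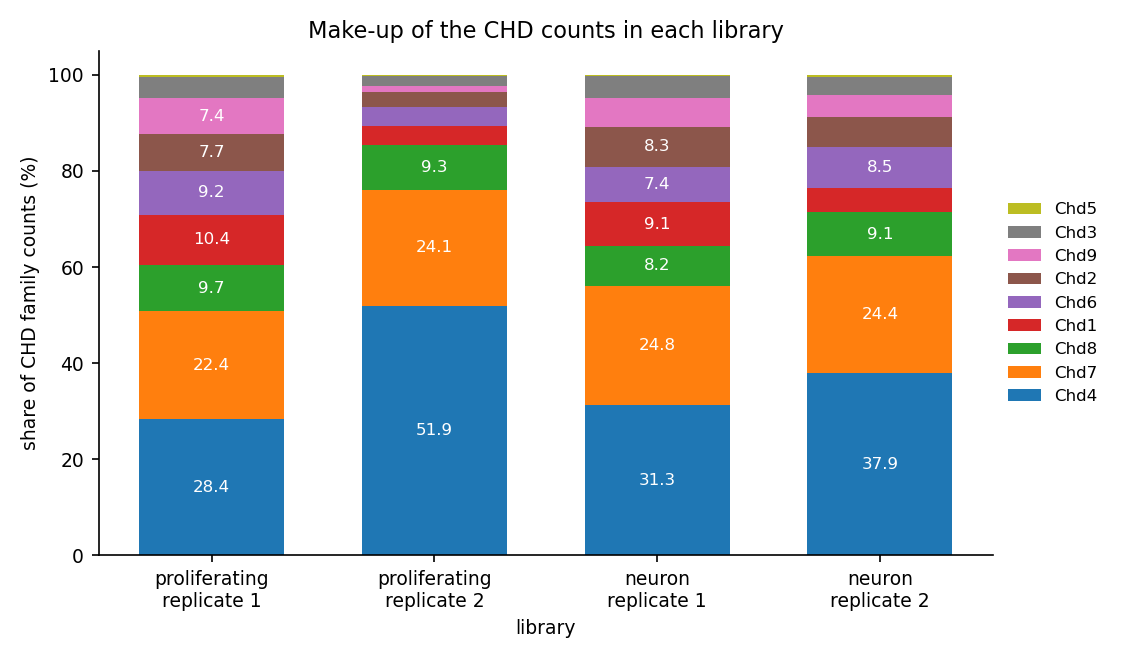
Share of each CHD gene in the summed CHD counts of each library, in percent, with shares above 7% printed in the bars. The Chd7 share lies between 22.4% and 24.8% in all 4 libraries, while that of Chd4 runs from 28.4% to 51.9%.

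Of the 8 ratios of Chd7 to a relative, that to Chd8 was the one whose groups did not overlap. Its log2 values were 1.21 and 1.38 in proliferating cells and 1.59 and 1.42 in neurons, a difference of 0.21. The exact two-sided permutation p was 0.333, again the smallest that 2 libraries against 2 can give. After Benjamini-Hochberg adjustment over the 8 ratios it was 1, and no conclusion is drawn from this separation. The ratio to Chd4 was -0.34 and -1.10 in proliferating cells and -0.34 and -0.63 in neurons. Between the libraries of replicate 1 that ratio was the same to within 0.002. The ratio to Chd9 spread most, with 1.60 and 4.12 in proliferating cells and 2.04 and 2.46 in neurons. Changes of the other ratios between the groups, from -0.61 for Chd9 to 0.51 for Chd5, were smaller than their pooled SD within groups, and the adjusted permutation p was 1 for all 8. By subfamily, group III held 48.6% and 38.8% of CHD counts in proliferating cells and 46.4% in each neuron library. Group II held 33.3% and 54.1% against 36.2% and 42.2%, and group I 18.1% and 7.05% against 17.4% and 11.4%.

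Likeness of pattern was measured as the root mean square difference of log2 CPM over the 4 libraries, each gene centred on its own mean. Among the relatives Chd8 was nearest to Chd7 with 0.14, followed by Chd4 with 0.31, and Chd9 was farthest with 0.94. Over all 36 pairs of members the closest was Chd2 with Chd3, at 0.10, and Chd4 with Chd9 was the most distant, at 1.24. Of 7294 genes averaging 50 counts or more, the 3 nearest were E2f3 (0.022), Kansl1 (0.024) and Ice1 (0.029). E2f3, a transcription factor of cell cycle entry, had 19.8 and 18.4 CPM in proliferating cells and 24.5 and 21.9 CPM in neurons. With 4 libraries many genes lie close to any one gene, and Chd8 had rank 264 in the order of nearness to Chd7.

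The partners of the CHD proteins showed no called change either. All 17 listed partners of subfamily II in NuRD and in ChAHP, the complex of CHD4 with ADNP and HP1 proteins, were tested. Of these, 11 were above 0 and 6 below, where 52.0% of all tested genes were above, with a median log2 fold change of 0.25 against 0.02 for all. Of the 17, 8 were higher in both pairs, against 28.8% of all genes, and the other 9 went opposite ways in the 2 pairs. The scaffold subunit gene Gatad2b had the largest value, with 653 and 425 counts in proliferating cells and 1368 and 800 in neurons (log2 fold change 0.82, SE 0.44, edgeR adjusted p 0.9998). Among those 9, the widest splits were in Gatad2a (0.54 and -1.24), Cdk2ap1 (0.63 and -0.98), Mta2 (0.53 and -0.95) and Mbd3 (0.20 and -1.21), named after their values were seen. Of 12 partners of Chd7 and Chd8, 11 were tested, 8 above 0 and 3 below, with a median of 0.15. Fam124b was at 0 in all 4 libraries. Kmt2a, a histone H3K4 methyltransferase, had 60.9 ± 3.81 and 61.3 ± 4.02 CPM (SD, n = 2 each). Top2b, the topoisomerase of neuronal gene expression, had 944 and 140 counts in proliferating cells and 1147 and 746 in neurons, a low value again in proliferating replicate 2. Of 8 elongation and histone genes linked to Chd1 and Chd2, 4 were above 0 and 4 below, with a median of -0.01.

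Among 14 remodelling ATPases of other families, 7 were above 0 and 7 below, with a median of 0.04. Smarca1, the ISWI motor of differentiated neurons, was the 1 gene of 14 with an unadjusted p under 0.05, against 3.43% of all tested genes. It had 4 and 2 counts in proliferating cells and 22 and 28 in neurons, a log2 fold change of 2.90 (SE 0.86) with an edgeR adjusted p of 0.966. Only the neuron libraries lifted Smarca1 past the filter's minimum count of 10, so it was tested through the group where it was high. Its fold change also rests on very low proliferating counts, and no conclusion is drawn from it. Its relative Smarca5, the ISWI motor of dividing cells, had 432 and 110 counts against 410 and 321, and Smarca4, the BAF motor, had 771 and 827 against 848 and 912. Of 10 listed genes reported to depend on CHD7 in the inner ear or nervous system, 6 were tested, 4 above 0 and 2 below with a median of 0.47. Sox11, a transcription factor of newborn neurons, had 2598 and 1376 counts in proliferating cells and 3092 and 2895 in neurons, or 199.9 ± 19.2 and 277.6 ± 24.8 CPM (SD, n = 2 each). Its log2 fold change was 0.47 (SE 0.40), and that of Sox4 was 0.46 (SE 0.48), each positive in both pairs. Of the 6 tested, 3 were higher in both pairs (28.8% of all genes), 1 was lower in both (25.5%) and 2 went opposite ways. The lower one was Jag1, with log2 differences of -0.10 and -1.08 and a fitted value of -0.53 (SE 0.49). Reln and Neurod1 varied more between the neuron replicates than between the groups, with 48 and 715 counts for Reln and 2 and 24 for Neurod1. Otx2, Neurog1 and Fgf10 had at most 4 counts in any library.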

How the data were processed

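RNA from 4 cultures, 2 per group by sample title, had been depleted of ribosomal RNA and made into stranded libraries, per the labels' protocols. The authors deposited raw counts per gene symbol and RPKM values for each library. The submitters' processing notes name HISAT2, SAMtools, featureCounts, DESeq2, deepTools 3.4.3 and the build mm10. The annotation, the strand setting and the handling of reads with several matches are not given in the sources used here, so Chd2 and Chaserr, which share exon sequence, are uncertain, as are antisense overlaps of Chd2, Chd5, Chd8 and Chd9. The deposited RPKM values were used only to recover the gene length behind them. Counts were tested with edgeR 4.0.16 in R 4.3.3 (TMM, filterByExpr with minimum count 10 and total 15, glmQLFit and glmQLFTest, group as the single term), adjusted over all tested genes. DESeq2 1.42.0 was an alternative. Intervals of fold changes use the SE and the t distribution of that fit. Differences within a pair use a prior count of 2. Lengths and GC came from GENCODE M21 (GRCm38), the same build as mm10, matched by symbol for 90.7% of tested genes. Trends were removed with lowess, span 0.3. A protein table was not used, so coding length is the annotated one. Both replicate 2 titles name a set 2, so the replicate numbers were taken to mark a shared set. Deviations from group means correlated between same-numbered libraries with r = 0.33 across genes. Members, lists and tests were chosen with earlier results of these data known. Named genes are the members, the fixed lists, their host and overlapping genes, and the 3 genes nearest to Chd7. The test was tested on simulated data with the observed common dispersion, where it recovered most 16-fold changes and missed most 4-fold ones. That simulation gave every gene the same dispersion and held no replicate, GC or length trend. It changed only genes with a mean above 10 CPM, and Chd5 lies below that level. The recovery may therefore not hold for the members. At the lowest count of each member, 1 Poisson SD was 2.50% of the count for Chd4, 12.7% for Chd3 and 37.8% for Chd5. Python 3.11.15 and scipy 1.17.1 served for the rest.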

Additional observations from a re-analysis of the deposited data

How the results depend on the processing

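Genes called over the whole table numbered 0 with TMM, RLE factors, the CPM filter, the 18S row left out, the GC correction (561 at an unadjusted p under 0.05) and the length correction (468), against 438 unadjusted in the reported edgeR fit. They were 2 with library size alone, 59 with DESeq2, 163 without a gene filter, 3 with the replicate block, 93 with the GC correction and block, and 108 with the length correction and block. Leaving out 1 library gave 18 to 113. None of the 9 members was called in any of these settings. The replicate block changed no call of a member, with log2 fold changes of 0.28 for Chd7 and 0.85 for Chd9. Signs of uncalled members turned with library size alone for Chd1 (-0.26), Chd4 (-0.16), Chd6 (-0.10), Chd8 (-0.28) and Chd9 (-0.17), and Chd7 stood at 0.00088. The GC correction turned Chd1 (-0.0075). The length correction turned Chd4 (-0.19), Chd7 (-0.051) and Chd8 (-0.17), and with the replicate block these were -0.080, -0.0028 and -0.16. Beyond the settings' own construction the cause was not tested. Leaving out 1 library at a time gave ranges of -0.41 to 1.10 for Chd1, 0.048 to 1.55 for Chd2, 0.090 to 1.37 for Chd3, -0.32 to 0.41 for Chd4, -1.03 to 0.55 for Chd5, -0.086 to 1.25 for Chd6, 0.20 to 0.33 for Chd7, -0.040 to 0.17 for Chd8 and -0.36 to 2.19 for Chd9. Ranking by protein length was not run. In these fits a lone library is assumed to vary like the other group. The difference in the Chd7 share, 1.33 points, was 0.46 to 2.20 in the same way, -1.13 within subfamily III and -3.02 without Chd4, the last chosen after seeing the data. The ratio of Chd7 to each relative then gave -0.73 to 0.74 (Chd1), -1.24 to 0.23 (Chd2), -1.06 to 0.18 (Chd3), -0.15 to 0.62 (Chd4), -0.18 to 1.195 (Chd5), -0.95 to 0.35 (Chd6), 0.13 to 0.30 (Chd8) and -1.87 to 0.65 (Chd9). Chd7 ranked 2 under every omission of a library and 4 with the length implied by RPKM. With library size alone the list medians were -0.012 for NuRD and ChAHP, -0.16 for the partners of Chd7 and Chd8, -0.22 for elongation and histone genes, -0.31 for other ATPases and 0.13 for CHD7-dependent genes. The block gave 0.019 for elongation and histone genes and 0.23 for CHD7-dependent genes. Without 1 library these medians were 0.045 to 0.39, 0.041 to 0.26, -0.17 to 0.27, -0.032 to 0.94 and -0.026 to 0.57.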

Other observations

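Chd3, Chd4 and Chd8 each host a small RNA in an intron, and these RNAs have counts of their own. The Cajal body RNA gene Gm23751 lies within Chd4 and had 909 and 652 counts in proliferating cells and 939 and 1098 in neurons. Snord8, a small nucleolar RNA gene within Chd8, had 449 and 329 against 415 and 486. Gm22442, a Cajal body RNA gene within Chd3, had 216 and 77 against 248 and 94. In CPM, proliferating replicate 1 stood at 1.70 times replicate 2 for Gm22442, where the host Chd3 differed 2.51-fold. For Snord8 the ratio was 0.83, where Chd8 had 1.19. Their log2 fold changes between the groups were 0.23 (SE 0.44), 0.05 (SE 0.45) and 0.11 (SE 0.57), with an edgeR adjusted p of 0.9998 each.

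Chaserr is a long noncoding RNA gene just upstream of Chd2 that is known to restrain Chd2 in cis. It had 135 and 30 counts in proliferating cells and 106 and 73 in neurons, a log2 fold change of 0.10 (SE 0.59, 95% interval -1.28 to 1.48). It differed 2.73-fold between the proliferating replicates, where Chd2 differed 2.94-fold. The GENCODE models of the 2 genes share 2628 bases of exon on the same strand, so how reads of that stretch were divided between them is uncertain.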
